A study of Mus musculus with 12 samples.

Results

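Transcripts that mark neutrophils and red cells were followed in hearts of control and mdx mice on 12 Affymetrix MOE430A arrays. The members were 6 genes of the 12393 that have a probe set annotated to them alone. Their 8 probe sets were found by that annotation. The neutrophil members were S100a8, S100a9, Ngp and Camp, and the red cell members were Slc4a1 and Alas2. Each of the 4 groups had 3 arrays, namely control and mdx hearts at 8 weeks and control and mdx hearts at 10.5 months. The labels give no strain, sex or allele beyond the words control and mdx, and mdx mice carry a mutation of the dystrophin gene Dmd in every cell. No treatment is named, and whether the hearts were rinsed of blood is not given in the sources used here. One keyword of the sample records names extraocular muscle, while titles and sources name heart.

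Neutrophils are short-lived white blood cells that enter injured muscle early. S100a8 and S100a9 encode the subunits of calprotectin, a calcium-binding protein that fills the neutrophil cytosol and is also made by monocytes. Ngp encodes neutrophilic granule protein and Camp the antimicrobial peptide cathelicidin, both stored in granules and transcribed mainly in marrow precursors. Slc4a1 encodes band 3, the anion exchanger of the red cell membrane. Alas2 encodes the erythroid form of the enzyme that starts haem synthesis. Mature mouse red cells have no nucleus, and the young red cells called reticulocytes still hold such transcripts. In whole tissue, fewer blood cells and less RNA per cell cannot be told apart.

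S100a8 and S100a9 lie near each other on chromosome 3 and gave the closest pair of profiles here, and Alas2 gave the single highest value among the red cell members. The 250 bases before the RefSeq start of these 3 genes are shown for that reason, from the RefSeq table of build GRCm38.p6, each read 5′ to 3′ on the strand of its gene. The window of S100a8 is chr3:90668821-90669070 on the plus strand, that of S100a9 is chr3:90695722-90695971 on the minus strand, and that of Alas2 is chrX:150547167-150547416 on the plus strand. Capitals mark matches to 5 motifs on either strand. The GATA motif was searched as AGATAA. The ETS motif of the PU.1 kind was searched as GAGGAA. The C/EBP motif was searched as TTNNGNAA. The CACCC box was searched by those letters, and the TATA box was searched as TATAAA.
S100a8: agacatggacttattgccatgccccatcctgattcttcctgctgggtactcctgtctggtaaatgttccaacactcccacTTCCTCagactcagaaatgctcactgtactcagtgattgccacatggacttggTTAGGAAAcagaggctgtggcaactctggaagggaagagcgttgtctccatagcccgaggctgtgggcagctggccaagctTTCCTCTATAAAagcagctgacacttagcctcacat
S100a9: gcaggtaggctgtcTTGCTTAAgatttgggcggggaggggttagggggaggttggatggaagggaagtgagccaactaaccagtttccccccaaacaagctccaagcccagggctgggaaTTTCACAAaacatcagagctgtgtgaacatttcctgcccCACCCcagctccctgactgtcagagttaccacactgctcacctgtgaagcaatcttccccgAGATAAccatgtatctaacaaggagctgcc
Alas2: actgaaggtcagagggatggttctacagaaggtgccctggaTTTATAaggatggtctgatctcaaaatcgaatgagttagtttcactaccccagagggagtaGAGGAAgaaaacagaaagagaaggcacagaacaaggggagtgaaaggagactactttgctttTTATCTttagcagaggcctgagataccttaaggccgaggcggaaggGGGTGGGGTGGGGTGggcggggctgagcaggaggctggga
The S100a8 window held 2 ETS matches, 1 C/EBP match and a TATA box whose first base is at -30 from the start. The ETS match at -36 runs directly into that TATA box. The S100a9 window held 2 C/EBP matches, a CACCC box at -91 and a GATA match at -30. The Alas2 window held 3 CACCC boxes in a row on the opposite strand, at -40, -35 and -30, and a GATA match at -86 on that strand. It also held 1 ETS match at -148 and a TATA box on the opposite strand at -209. GATA factors and factors that bind CACCC are the known regulators of red cell genes, while C/EBP and PU.1 act in neutrophil development. The Ngp window held 3 C/EBP matches and the Camp window 2 CACCC boxes. Short motifs are common: of 32851 RefSeq promoter windows of this length, 9.99% held a GATA match, 23.3% an ETS match, 36.8% a C/EBP match, 52% a CACCC box and 12.4% a TATA box. A match is a description of the letters and was not tested as a binding site.

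Signals are given in array units after every array was scaled to a trimmed mean of 500. Before that scaling the deposited arrays had trimmed means from 1500.58 to 1500.91 and medians between 532.8 and 665.8, so these medians are on another scale. The top of the signal range was wider on 4 arrays: control replicate 2 and mdx replicates 1 and 2 at 8 weeks, and mdx replicate 3 at 10.5 months. By its brightest probe set, Dmd was lower on all 6 mdx arrays (159 to 286) than on all 6 control arrays (607 to 839). Its other tested probe set was also lower in mdx at each age without overlap. A dim untested one went the other way at 8 weeks, at 46.2 to 56.0 in mdx and 13.4 to 31.1 in controls. At 10.5 months that dim probe set overlapped between genotypes. Nothing in the labels says that the 3 arrays of a group came from separate animals, so p-values measure the spread between arrays. Of the 8 member probe sets 5 had a mean of at least 100 and were tested, 1 each for S100a8, S100a9, Ngp, Slc4a1 and Alas2. The Camp probe set and 2 of the 3 for Slc4a1 were too dim to be tested.

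S100a8 was bright in young control hearts and lower everywhere else. Its signals were 702, 680 and 583 in young controls, and the young mdx hearts had 303, 115 and 364. The older controls gave 75.2, 267 and 51.5 and the older mdx hearts 94.4, 102 and 234. All 3 young control arrays thus lay above the other 9, whose 3 groups overlapped one another. The probe set is of the kind that can bind more than 1 transcript, although its annotation names 1 gene.

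S100a9 showed the same pattern. Its signals were 850, 873 and 687 in young controls and 499.996, 153 and 359 in young mdx hearts. In older hearts they were 60.9, 337 and 78.4 in controls and 138, 110 and 215 in mdx. Again the young controls stood above every other array and the remaining groups overlapped. Within the older controls, replicate 2 was the high array for both calprotectin genes, and within the young mdx hearts replicate 2 was the low one.

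Ngp varied much less. It gave 289, 272 and 279 in young controls, 214, 294 and 349 in young mdx hearts, 149, 220 and 190 in older controls, and 152, 184 and 196 in older mdx hearts. The young groups overlapped each other, as did the older groups, and within each genotype every young array was above every older one. Camp never rose above 22.9 on any array, which is less than the offset of 32 added before logarithms, so its order over groups cannot be read.

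By its tested probe set, Slc4a1 was higher in young hearts of either genotype. Its tested probe set gave 141, 202 and 369 in young controls and 87.5, 169 and 201 in young mdx hearts. The older controls gave 82.2, 25.6 and 83.0 and the older mdx hearts 54.7, 49.7 and 69.9. All 6 young arrays were above all 6 older arrays, by as little as 87.5 against 83.0, and the genotypes overlapped at each age. The 2 dimmer probe sets of Slc4a1 had their highest means in young controls too. One had 144 ± 99.2 there (SD, n = 3) and 61.9 ± 10.4 in young mdx hearts, and the other 44.1 ± 20.2 and 16.9 ± 9.8.

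Alas2 was set apart by 1 array. Young controls gave 889, 1287 and 3811, and young mdx hearts 857, 475 and 614. Older controls gave 780, 1060 and 939, and older mdx hearts 886, 691 and 1032. The groups did not overlap at 8 weeks, but the lowest control array, at 889, was close to the highest mdx array, at 857. At 10.5 months they overlapped throughout.

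**Figure D1:**
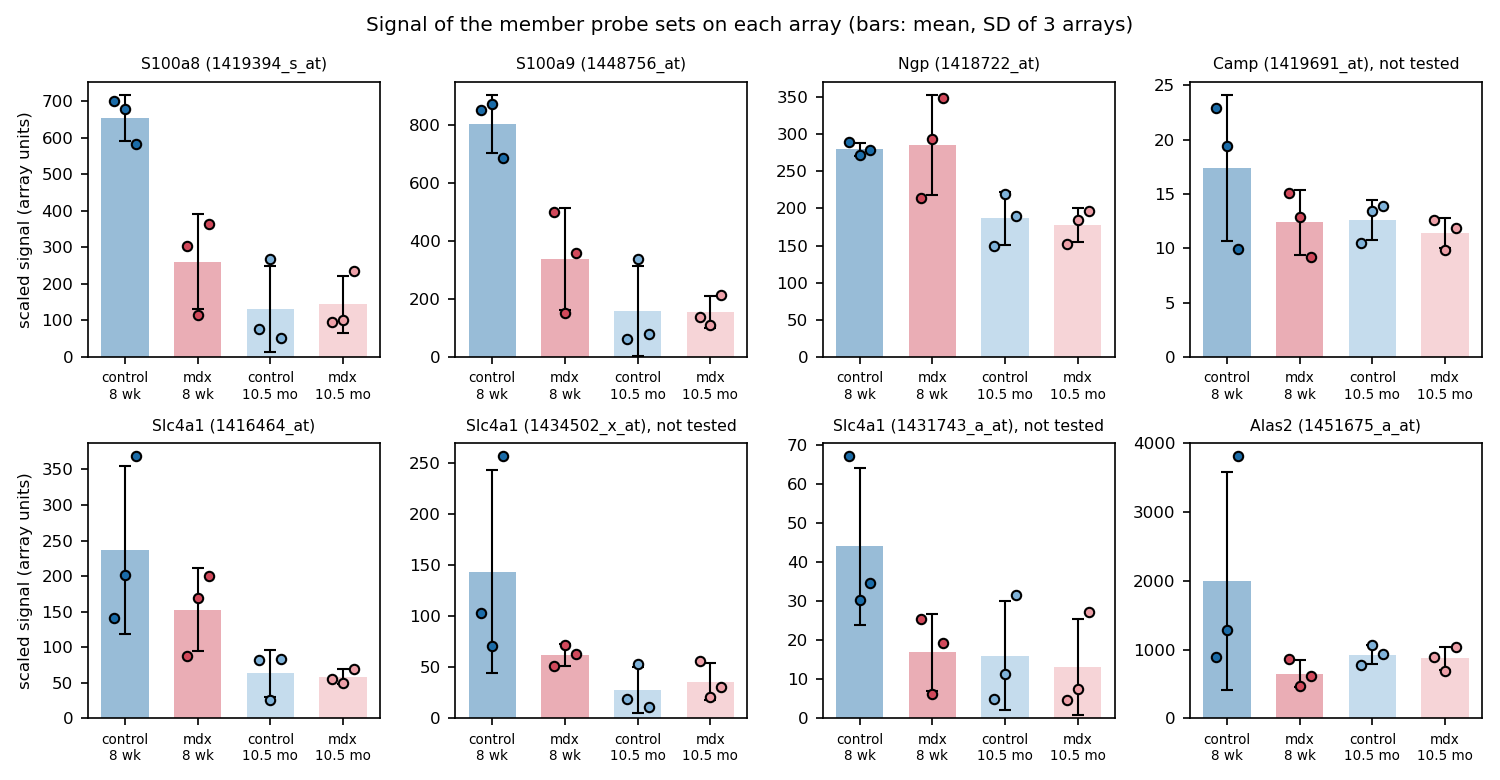
Scaled signal (array units, linear axis from 0) of the 8 member probe sets in the 4 groups, with points for single arrays, bars for the mean and whiskers for the SD of 3 arrays. Young controls hold the highest mean in 7 of the 8 panels, Ngp being the exception, and 1 array at 3811 carries the young control mean of Alas2.

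The first question was what differed between mdx and control hearts at 8 weeks. S100a8, S100a9 and Alas2 were lower in mdx, with no overlap between the 3 arrays of each group, but no member passed the test. On the log2 scale, the difference was -1.35 ± 0.46 (SE) for S100a8 (adjusted p = 0.146), -1.30 ± 0.46 for S100a9 (adjusted p = 0.167) and -1.33 ± 0.40 for Alas2 (adjusted p = 0.106). These correspond to signals 2.54, 2.46 and 2.52 times lower. For Slc4a1 it was -0.51 ± 0.34 (adjusted p = 0.457), and Ngp was at 0.00 ± 0.18 (adjusted p = 0.996), with a 95% interval from -0.39 to 0.40.

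Of the 5 tested members, limma called 0 at 8 weeks, against 2.3% of all 14932 probe sets tested. At an unadjusted p below 0.05 there were 3 members, where 17.8% of all probe sets lay, and 3 were lower without overlap, where 10.1% of all lay. The members' median was -1.30 and that of all tested genes -0.01. S100a8 and S100a9 varied together over the arrays (r = 0.98), so the 5 members are not separate readings. Alas2 depended on control replicate 3, without which its difference was -0.73 (adjusted p = 0.238) and that of Slc4a1 -0.18 (adjusted p = 0.865). Without that array S100a8 and S100a9 were at -1.42 and -1.41, but without mdx replicate 2 they were at -0.91 and -0.87 (adjusted p = 0.319 and 0.355). Over all alternatives adjusted p ran from 0.0803 to 0.319 for S100a8, from 0.0723 to 0.355 for S100a9 and from 0.0579 to 0.284 for Alas2.

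At 10.5 months no such difference was seen. S100a8 was at 0.25 ± 0.46, with a 95% interval from -0.73 to 1.23, and S100a9 at 0.22 ± 0.46, from -0.78 to 1.22. For Alas2 the difference was -0.10 ± 0.40 (-0.96 to 0.77), for Slc4a1 -0.02 ± 0.34 (-0.75 to 0.71) and for Ngp -0.05 ± 0.18 (-0.44 to 0.34). Adjusted p was at least 0.929 for each. Of the 5 members 0 were called at 10.5 months, where 0.0469% of all probe sets were, and 0 lay at an unadjusted p below 0.05, where 7.37% of all lay. None was lower without overlap, where 10.6% of all lay. Control replicate 2 bore on the calprotectin genes. Without it S100a8 was at 0.80 and S100a9 at 0.84.

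The mdx effect was then compared between the ages. The difference of the 2 effects was 1.60 ± 0.64 for S100a8 (adjusted p = 0.343), 1.52 ± 0.66 for S100a9 (adjusted p = 0.382) and 1.24 ± 0.57 for Alas2 (adjusted p = 0.407). It was 0.49 ± 0.48 for Slc4a1 (adjusted p = 0.727) and -0.06 ± 0.26 for Ngp (adjusted p = 0.956). Of the members 0 were called, against 0.154% of all probe sets, so the effect was not shown to depend on age. Without control replicate 3 at 8 weeks the difference was 0.64 for Alas2 (adjusted p = 0.579) and 0.16 for Slc4a1 (adjusted p = 0.936). The 3 members at an unadjusted p below 0.05 stood beside 12.1% of all probe sets. Over both ages together, with genotype labels permuted within each age in a two-sided exact permutation test, Alas2 was at -0.72 (exact p = 0.055) and lower in 5 of 6 mdx arrays than the control mean of its age. Its exact p was 0.035 without control replicate 1 at 8 weeks, control replicate 1 at 10.5 months or mdx replicate 3 at 10.5 months, whereas without control replicate 3 at 8 weeks Alas2 was at -0.41 (exact p = 0.105). S100a8 was at -0.55 (exact p = 0.25), S100a9 at -0.54 (exact p = 0.27), Slc4a1 at -0.27 (exact p = 0.375) and Ngp at -0.02 (exact p = 0.845). Without control replicate 2 at 10.5 months the values were -0.27 for S100a8, -0.23 for S100a9 and -0.43 for Slc4a1 (exact p = 0.59, 0.625 and 0.08), and without control replicate 3 at 8 weeks Slc4a1 was at -0.10 (exact p = 0.695).

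**Figure D2:**
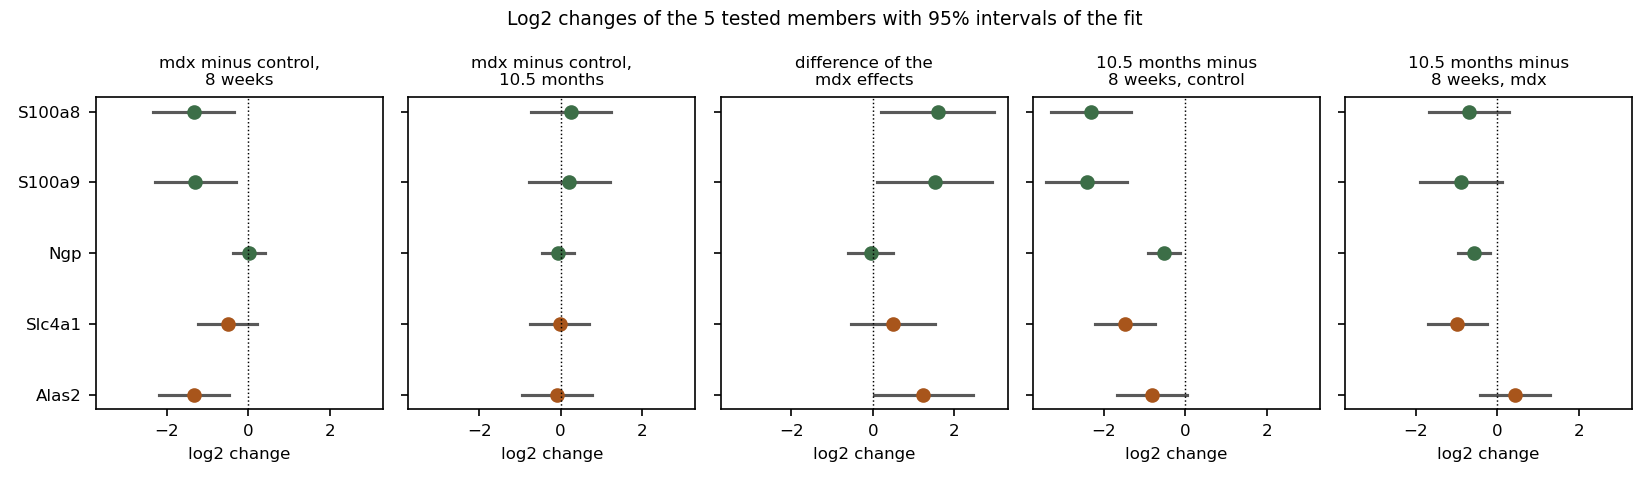
Log2 change of the 5 tested members in the 5 comparisons, with points for the estimate and lines for its 95% interval; neutrophil members are green and red cell members brown. At 8 weeks S100a8, S100a9 and Alas2 lie near -1.3, at 10.5 months all 5 lie near 0, and in controls all 5 are below 0 at the older age.

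Age was compared next. In control hearts all 5 tested members were lower at 10.5 months than at 8 weeks. S100a9 differed by -2.42 ± 0.46 (adjusted p = 0.0585), a signal 5.33 times lower, and S100a8 by -2.30 ± 0.46 (adjusted p = 0.0663), 4.93 times lower. Slc4a1 was at -1.47 ± 0.34 (adjusted p = 0.118), Alas2 at -0.81 ± 0.40 (adjusted p = 0.443) and Ngp at -0.53 ± 0.18 (adjusted p = 0.276). None passed the threshold, which 0.147% of all probe sets did, while 4 lay at an unadjusted p below 0.05, as did 12.2% of all. Both calprotectin genes did pass without control replicate 2 at 10.5 months, the array with the high values, at -2.86 and -3.04 (adjusted p = 0.0183 and 0.00769). They also passed without mdx replicate 2 at 8 weeks, which enters only the shared estimate of the spread (adjusted p = 0.0449 and 0.0448). Every member but Alas2 was lower without overlap, 4 of 5, where 10.5% of all probe sets were. For Alas2 the difference was -0.21 without control replicate 3 at 8 weeks.

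In mdx hearts the age difference was smaller for the calprotectin genes, at -0.71 ± 0.46 for S100a8 (adjusted p = 0.318) and -0.90 ± 0.46 for S100a9 (adjusted p = 0.211). With single arrays left out they ran from -1.14 (without mdx replicate 2 at 8 weeks) to -0.43 (without mdx replicate 3 at 8 weeks) for S100a8, and from -1.33 (without mdx replicate 2) to -0.57 (without mdx replicate 1) for S100a9. The test of the gap between genotypes is the difference of the mdx effects given above, which did not pass. Ngp was at -0.58 ± 0.18 (adjusted p = 0.0551) and Slc4a1 at -0.98 ± 0.34 (adjusted p = 0.0733), both without overlap. Such non-overlap, found for 2 of 5 members, held for 15.5% of all probe sets, and the filter limits the reading of Slc4a1 here too. Alas2 had the opposite sign, at 0.43 ± 0.40 (adjusted p = 0.507). Again limma called 0 members, in a comparison where 11.4% of all probe sets were called, and 2 lay at an unadjusted p below 0.05, where 30.2% of all lay. Ngp and Slc4a1 did pass without mdx replicate 1 at 8 weeks, at -0.76 and -1.27 (adjusted p = 0.0259 and 0.0459).

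Over both genotypes, the fall with age could be tested for single members by permuting the age labels within each genotype. Ngp fell by 0.55 on the log2 scale (two-sided exact permutation p = 0.005, the smallest that 400 permutations allow) and Slc4a1 fell by 1.23 (exact p = 0.005). The Slc4a1 probe set had passed the filter only through its young groups, which limits what its fall can show. S100a9 fell by 1.66 and S100a8 fell by 1.504 (exact p = 0.01 for each). Each of these was lower on 6 of 6 older arrays than the young mean of its genotype. Alas2 was at -0.19 (exact p = 0.745, lower on 3 of 6 arrays). The share of all probe sets that reach such an exact p was not computed. Of all probe sets, 10.5% in controls and 15.5% in mdx hearts were lower at the older age without overlap. In both of those age comparisons limma called 0 members. These 10 exact tests, 5 for genotype and 5 for age, were not adjusted for their number.

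The members also differed in how they moved from array to array. S100a8 and S100a9, whose proteins form 1 complex, varied together over the 12 arrays (Pearson r = 0.98, Spearman rho = 0.97, permutation p = 1e-05 for each, the smallest that 100000 permutations can give, and 7e-05 after Benjamini-Hochberg adjustment over 7 pairs). With the group means removed r was still 0.92, so the pair also matched within groups, and without the 2 arrays farthest from the S100a8 median it was 0.97. Ngp was less close to S100a8 (r = 0.70, rho = 0.73, permutation p = 0.0138, adjusted 0.0384) and to S100a9 (r = 0.69, rho = 0.69, permutation p = 0.0165, adjusted 0.0384), and the group means removed left 0.38 and 0.23. For every pair the permutations moved arrays across groups, so shared group differences enter these p-values. No p was computed with the group means removed. The 3 pairs with Camp had r from 0.23 to 0.55 (adjusted permutation p from 0.109 to 0.48), on signals below the offset.

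The red cell members did not form such a pair. Slc4a1 and Alas2 had r = 0.42 and rho = 0.11 (permutation p = 0.175 and 0.73, adjusted 0.204 and 0.733), and r was -0.14 without the 2 arrays farthest from the Slc4a1 median, so the relation rests on those arrays. As a description with no test, the mean of the neutrophil members against the mean of the red cell members had r = 0.61 over 12 arrays and -0.20 with group means removed. The neutrophil mean includes Camp, with signals below the offset, and the red cell mean includes the single Alas2 value of 3811.

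**Figure D3:**
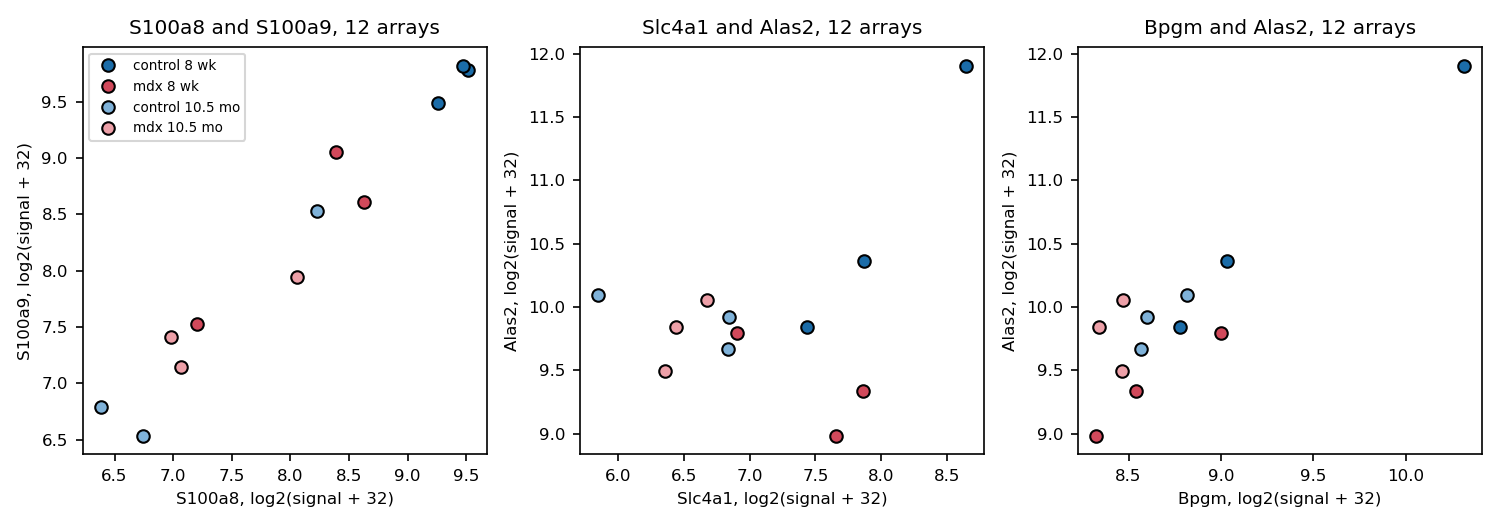
Log2(signal + 32) of S100a8 against S100a9, of Slc4a1 against Alas2 and of Bpgm against Alas2, with 1 point per array coloured by group. The calprotectin genes lie along 1 line through all groups, whereas young control replicate 3, at the upper right, sits apart in both panels with Alas2.

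The genes with profiles most like each member were taken from 8852 genes by Pearson r over the 12 arrays, as a description with no test. Arrays share scaling and signal range, which enter every such r. For S100a8 and S100a9 the nearest gene after each other was Ssbp4 (r = 0.90 and 0.92), which encodes a single-stranded DNA binding protein, and Pbk, a kinase of dividing cells, was also among the first 5 of each (0.90 and 0.88). No granule gene was among them. For Ngp the nearest were Rrp1b (0.92), Eif4ebp2 (0.90) and the interferon-induced factor Irf1 (0.90). For Slc4a1 they included 2 red cell genes, Car2 (0.90), the carbonic anhydrase of red cells and other tissues, and Trim10 (0.89), which acts in the late steps of red cell formation, beside Gucd1 (0.92). For Alas2 the nearest was Bpgm (0.91), the red cell enzyme that makes bisphosphoglycerate, followed by Cd24a (0.85), a surface protein of red cells and of many other cells. Both rested on the same array. Without control replicate 3 at 8 weeks r fell to 0.62 for Bpgm and 0.42 for Cd24a, while Slc4a1 kept 0.83 with Car2 and 0.90 with Trim10. With the group means removed Slc4a1 had 0.72 with Car2 and 0.59 with Trim10, so shared group differences enter those values. In that form Alas2 had 0.96 with Bpgm and 0.74 with Cd24a, with control replicate 3 included. Camp had Ap2a2 nearest (0.86), which is a relation to signals below the offset.

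Other genes of the same cells were read from lists of neutrophil, red cell, erythroid and haem genes. In 5 lists, 71 of the 103 measured genes were bright enough to be tested, each by its brightest probe set. At 8 weeks 3 of them were called, all lower in mdx, where 2.3% of all probe sets were called, and 19 lay at an unadjusted p below 0.05, where 17.8% of all lay. None of the 3 belonged to the neutrophil lists. At 10.5 months, in the difference between ages and in the control age comparison limma called 0 of 71, with 7, 8 and 15 at an unadjusted p below 0.05, where 7.37%, 12.1% and 12.2% of all probe sets lay. In mdx hearts 8 were higher and 4 lower at the older age, 12 of 71, beside the 11.4% of all probe sets called there.

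Many neutrophil genes other than the members were dim. Of 18 measured granule genes 9 could not be tested, among them the proteases Elane (at most 103) and Prtn3 (at most 25.5) and the chitinase-like Chil3. The chemokine receptor gene Cxcr2, which defines circulating neutrophils, stayed between 25.8 and 78.6. At 8 weeks the 9 tested granule genes had a median of 0.00 in mdx, with 0 called, beside the -1.35 and -1.30 of the calprotectin genes. The 15 tested surface and oxidase genes had a median of 0.43, with 10 positive and 0 called. Of these 15 genes, mdx replicate 3 at 8 weeks held the highest of the 12 values for 10, whereas over all tested genes it did so for 15.6%. Their sum on that array was 6709, against 4613 and 4419 on the other young mdx arrays. Cxcr4, a receptor that holds neutrophils in marrow and is found on many leukocytes, was at 0.69 ± 0.21 (adjusted p = 0.120). With age in controls the granule list had a median of -0.29 (6 of 9 negative, 0 called), and the iron-binding lipocalin gene Lcn2 was at -1.20 ± 0.29 (adjusted p = 0.143). The surface list was at 0.07.

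In mdx hearts, where more genes passed for age, neutrophil genes went both ways. Anxa1, which encodes a protein that limits neutrophil entry and is made by many cells, rose by a log2 value of 1.17 ± 0.19 (adjusted p = 0.00359), from 478, 639 and 739 to 1142, 1736 and 1428. S100a6, a calcium-binding protein of many cell types, rose by 1.14 ± 0.27 (adjusted p = 0.0209), and the oxidase subunit gene Cyba rose by 0.68 ± 0.20 (adjusted p = 0.0499). Trem3, a receptor of neutrophils and macrophages, fell by 1.19 ± 0.19 (adjusted p = 0.00388), from 281, 250.2 and 347 to 121, 100.7 and 108. The collagenase gene Mmp8 fell by 0.73 ± 0.22 (adjusted p = 0.0496). Of these 5, Anxa1 and Trem3 passed in all 19 alternatives, S100a6 in 14, Mmp8 in 7 and Cyba in 4.

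The summed signal of the tested genes gives the level of each list per array. For granule genes it ran from 7769 to 13070 in young controls and from 9449 to 14697 in young mdx hearts, and from 9271 to 13358 and 12222 to 18735 in older controls and older mdx hearts, so it overlapped between genotypes at 8 weeks and between ages in controls. That sum includes the lysozyme genes, which macrophages also express. The surface and oxidase genes summed to between 4168 and 5259 and between 4419 and 6709 in young controls and young mdx hearts, and to between 4391 and 5511 and between 5317 and 6705 in the older groups. Macrophage genes summed to between 11897 and 14431 in young controls and between 13529 and 14749 in young mdx hearts, and none of the 18 tested was called there. Summed over all 5 genes, atrial myocyte signal did separate the young groups, at 4409 to 6400 in controls and 11966 to 12964 in mdx hearts. Of the 5 genes 0 were called there, and Myl4 overlapped between the groups. In older controls the atrial sums ran from 4987 to 22868. How much of any heart chamber or cell mixture enters the members' differences was not tested.

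Among red cell and haem genes, several were lower beside Alas2 in young mdx hearts. Tent5c, a poly(A) polymerase that is abundant in late red cell precursors, fell by 2.25 ± 0.48 on the log2 scale (adjusted p = 0.0349), from 390, 638 and 1198 to 228, 165 and 30.5. Slc25a37, or mitoferrin, which brings iron into mitochondria for haem synthesis, fell by 1.06 ± 0.24 (adjusted p = 0.0446), from 468, 652 and 899 to 369, 258 and 272. Blvrb, a reductase of red cells and liver, fell by 1.39 ± 0.30 (adjusted p = 0.0344), from 84.1, 123 and 246 to 32.3, 50.4 and 20.6. In each of these genes the highest young control array was replicate 3, the array of the high Alas2 value, yet the groups did not overlap. Without that array none of the 3 passed, at -1.85, -0.83 and -1.04 (adjusted p = 0.125, 0.1504 and 0.110). Tent5c and Blvrb passed in 11 of 19 alternatives each and Slc25a37 in 6. All 3 also lost their call without control replicate 2 or mdx replicate 3 at 8 weeks, without control replicate 1 or mdx replicate 2 at 10.5 months, or with only the 8-week arrays (adjusted p at most 0.163, 0.162 and 0.154 over all alternatives). For Tent5c the call was also lost without control replicate 2 at 10.5 months or with the replicate number as a block (adjusted p = 0.0533), and for Blvrb without mdx replicate 1 at 8 weeks or with a floor of 64 (adjusted p = 0.109). For Slc25a37 it was also lost with the replicate number as a block (adjusted p = 0.0747), with the wide signal range as a block, with no filter, or without mdx replicate 2 at 8 weeks, control replicate 2 or 3 at 10.5 months or mdx replicate 1 at 10.5 months.

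As groups, 11 of 17 erythroid genes and 12 of 14 haem genes were negative at 8 weeks, with medians of -0.15 and -0.26 against -0.01 for all tested genes, and 2 and 1 were called, where 2.3% of all probe sets were. The 16 red cell membrane and haemoglobin genes had a median of -0.02 with 0 called. The summed signal of the erythroid list ran from 9232 to 11315 in young controls and from 7036 to 8869 in young mdx hearts. These ranges did not overlap, and 10.1% of all single probe sets were lower without overlap there. That sum includes genes of other cells too, such as Tfrc. In older hearts it was 7136 to 7511 in controls and 6577 to 7386 in mdx. With age in controls 14 of 17 erythroid genes were negative (median -0.22, 0 called), Car2 was at -0.80 ± 0.17 (adjusted p = 0.0873) and Trim10 at -0.78 ± 0.18 (adjusted p = 0.118). Young control replicate 3 held the highest of the 12 values for 6 of the 17 erythroid genes, whereas over all tested genes it did so for 6.8%. Bpgm on that array was 1241, against 288 to 492 on the other 11.

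In mdx hearts Blvrb changed with age in the other direction from Slc4a1. It rose by a log2 value of 2.06 ± 0.30 (adjusted p = 0.00238), to 188, 238 and 306, and passed in all 19 alternatives. The haem enzyme gene Uros rose by 0.60 ± 0.15 (adjusted p = 0.0208) and the porphyrin transporter gene Abcb6 by 0.52 ± 0.15 (adjusted p = 0.0406). The blood group gene Rhd rose by 0.97 ± 0.26 (adjusted p = 0.0303) and the membrane transport gene Xk by 0.88 ± 0.26 (adjusted p = 0.0470). Ube2o, which clears unassembled proteins in reticulocytes, fell by 0.66 ± 0.15 (adjusted p = 0.0159). The beta globin gene Hbb-b2 fell by 1.04 ± 0.23 by its brightest probe set (adjusted p = 0.0149), but its other tested probe set was at 1.07 ± 0.48 (adjusted p = 0.156), so the probe sets disagree. Rhd passed in 14 of 19 alternatives, Xk in 8, Uros in 15, Abcb6 in 8, and Ube2o and Hbb-b2 in 17 each. Globin copies are near identical and share probes, and those annotated to several genes are not named here.

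**Figure D4:**
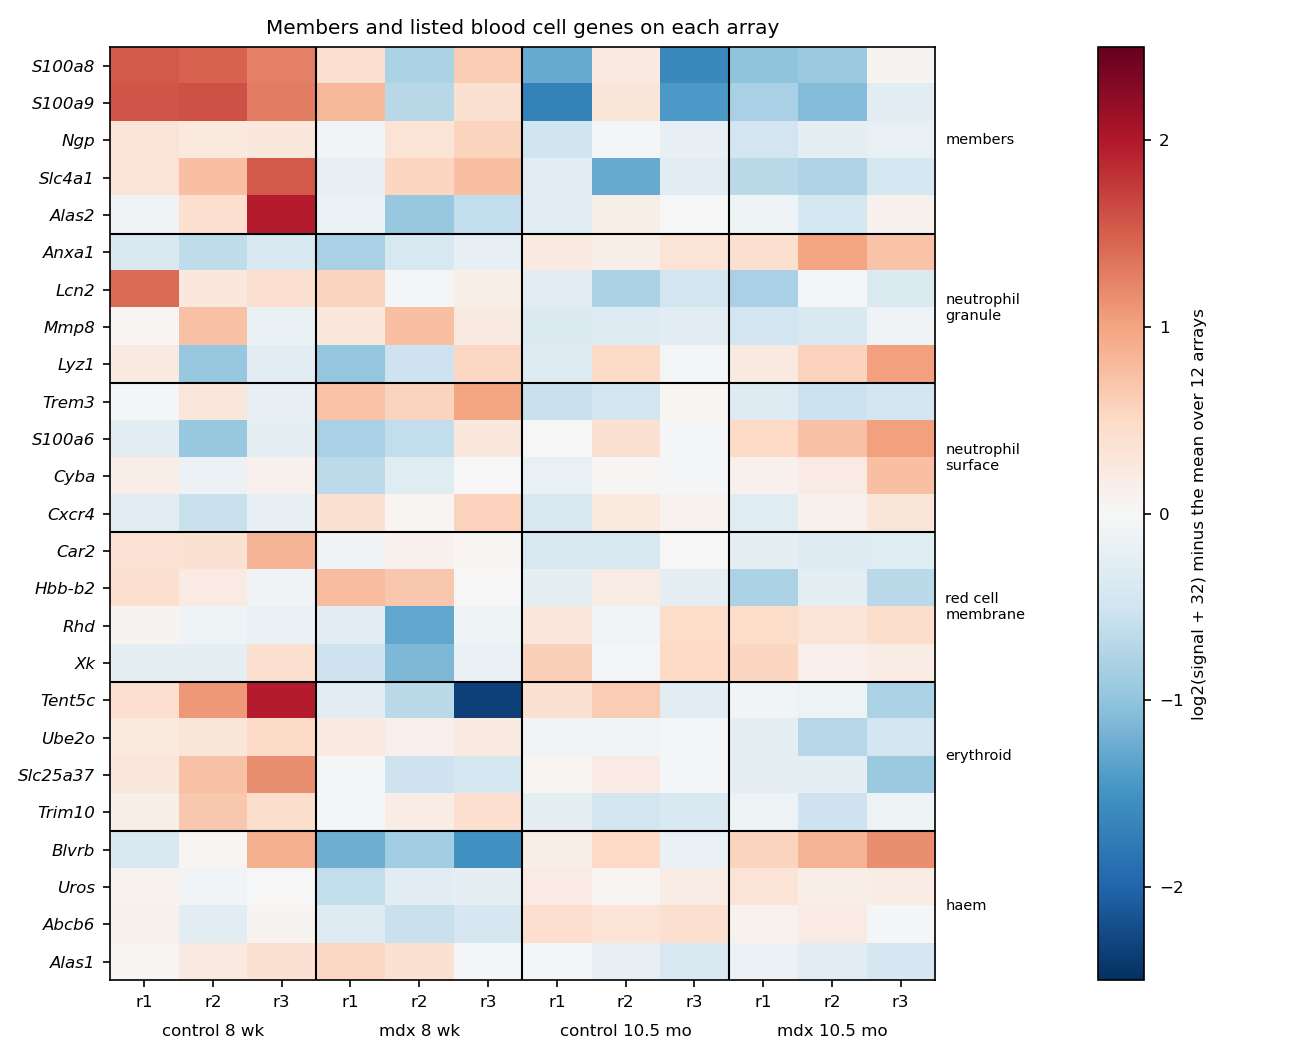
Log2(signal + 32) minus the mean over the 12 arrays (colour scale from -2.5 to 2.5) for the tested members and for the named genes of the neutrophil, red cell, erythroid and haem lists, with 1 column per array and lines between groups and lists. The calprotectin genes are high on the 3 young control arrays, and Alas2, Tent5c, Slc25a37 and Slc4a1 are highest on young control replicate 3.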

How the data were processed

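Total RNA of mouse heart was measured on 12 arrays, and groups came from the sample titles. Per the values themselves, the authors deposited linear intensity, 1 number per probe set and array, already scaled to a common trimmed mean. The labels name only a standard Affymetrix protocol, and the summary method is not given in the sources used here. Of 22690 probe sets, 20393 were annotated to 1 gene, 691 to several and 1606 to none. Symbols came from the platform annotation, updated through gene IDs.

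Each array was scaled to a trimmed mean of 500 (2% off each end), and log2(signal + 32) was used. Fold changes on that scale understate those of dim genes. The 14932 probe sets with a mean of at least 100 were fitted with limma 3.58.1 in R 4.3.3 (lmFit, eBayes, a mean per group, 12 arrays). Adjusted p is Benjamini-Hochberg over all of them, and below 0.05 is called. The fit was tested on simulated data. The members, lists, naming rule (up to 4 genes per list by smallest p, 5 by likeness) and tests were chosen with earlier results of these data known. Genes named outside the rule were chosen after their values were seen. Alternatives were an offset of 16, a floor of 64, quantile normalization, no filter, only the arrays compared, the replicate number or the wide signal range (99th percentile above 40000 deposited units) as a block, and each array left out. The number of arrays limits precision.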

Additional observations from a re-analysis of the deposited data

Results flagged for a closer look

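Named genes are given here where every array of 1 group moved one way against its comparison group taken as a whole. Every array of another group had to move the opposite way under the same contrast. Single arrays could still overlap between the groups compared. Those of Alas2 did so in both age comparisons, and those of Rhd and Myl4 in both mdx comparisons. The difference itself was tested as the mdx effect at 10.5 months minus that at 8 weeks, on the log2 scale, with limma's adjusted p over all probe sets. None of the 12 genes passed.

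Among blood genes with opposite age effects in controls and mdx hearts, the difference was 1.24 ± 0.57 for Alas2 (adjusted p = 0.407) and 1.68 ± 0.68 for Tent5c (adjusted p = 0.345). Without control replicate 3 at 8 weeks the Alas2 age effect in controls was -0.21 and the difference 0.64 (adjusted p = 0.579). For the platelet chemokine gene Ppbp it was 0.91 ± 0.34 (adjusted p = 0.314). For Cyba, whose age and mdx effects both changed sign, it was 0.78 ± 0.29 (adjusted p = 0.305).

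Opposite mdx effects at the ages were found for Blvrb, with the smallest adjusted p of the 12 genes (2.08 ± 0.42, adjusted p = 0.0854), and for Trem3 (-0.86 ± 0.27, adjusted p = 0.230). The same held for Rhd (0.67 ± 0.36, adjusted p = 0.487), Uros (0.46 ± 0.21, adjusted p = 0.394) and the antibody joining chain gene Jchain (-0.72 ± 0.38, adjusted p = 0.484). The atrial genes Sln, Myl7 and Myl4 gave -4.07 ± 1.46, -3.00 ± 1.15 and -2.19 ± 1.02 (adjusted p = 0.289, 0.320 and 0.414). For those 3 genes the older control arrays spread widely, as their summed atrial signal of 4987 to 22868 shows.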

How the results depend on the processing

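Of 470 log2 changes of members under alternatives, 439 kept their direction and their side of the threshold, 9 crossed it to be called, 0 lost a call and 22 changed sign, and the causes were not tested. Those that changed sign had main values near 0, except the calprotectin genes at 10.5 months. With quantile normalization Ngp was at -0.021 at 8 weeks and at 0.0072 in the difference between ages, and its r with Camp was -0.17. With the wide signal range as a block Slc4a1 was at 0.031 at 10.5 months, and the third probe set of Tfrc, which had the smallest change of its 3, at 0.035 at 8 weeks. In the age comparison of mdx hearts a floor of 64 called 1 member (Slc4a1, adjusted p = 0.0485).

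The replicate numbers gave no sign of pairing: over 18 pairs with the same number, r of deviations from the group means ran from -0.13 to 0.13, and 2 exceeded 0.1. Between arrays of different numbers it ran from -0.29 to 0.25. Deviations within a group are tied to one another, so such r cannot decide whether arrays were paired. With the replicate number as a block, 2 members were called in the age comparison of mdx hearts (Ngp, adjusted p = 0.0458, and Slc4a1, adjusted p = 0.0494). With that block the probe sets called fell from 343 to 176 at 8 weeks, from 7 to 3 at 10.5 months and from 23 to 10 in the difference. With only the arrays compared they were 23 at 8 weeks, and 7 and 565 for age in controls and mdx hearts, where 22 and 1706 were called.

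With each array left out, the members called ran from 0 to 2 for age in controls and from 0 to 2 for age in mdx hearts. At 8 weeks Ngp ran from -0.14 to 0.18. At 10.5 months S100a8 ran from -0.12 to 0.80, S100a9 from -0.16 to 0.84, Ngp from -0.18 to 0.057, Slc4a1 from -0.35 to 0.15 and Alas2 from -0.22 to 0.054. The difference between ages ran from -0.23 to 0.087 for Ngp. Over both ages Ngp ran from -0.10 to 0.062 by genotype, and over both genotypes Alas2 ran from -0.41 to 0.11 by age. The r of Slc4a1 with Alas2 ran from -0.27 to 0.57, and that Tfrc probe set from -0.34 to 0.073. The probe sets called ran from 42 to 308 at 8 weeks, from 1 to 12 at 10.5 months, from 0 to 31 in the difference, from 7 to 35 for age in controls and from 598 to 1883 for age in mdx hearts. Dim members limit what can be read: Camp lies under the offset, and a fold of a signal near 32 is understated.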

Other observations

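Tfrc, the transferrin receptor that supplies iron to red cell precursors and to other cells, was singled out after its values were seen. The probe set with the largest change of its 3 fell by 1.68 ± 0.29 on the log2 scale in mdx hearts at 8 weeks (limma, adjusted p = 0.0145), from 1724, 1090 and 1740 to 339, 630 and 401. Its brightest probe set was at -0.39 (adjusted p = 0.308) and the third at -0.09 (adjusted p = 0.879), so the probe sets disagree. The call held in 16 of 19 alternatives. It was lost without control replicate 3 at 8 weeks (-1.57, adjusted p = 0.0692), without control replicate 1 at 8 weeks, or with only the 8-week arrays.

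Other blood cells gave no called gene at 8 weeks. The 7 tested platelet genes had a median of -0.03, with Ppbp at -0.94 ± 0.24 (adjusted p = 0.0618). The 5 tested genes of eosinophils, basophils and mast cells were at -0.04, with the mast cell protease gene Cpa3 at 1.00 ± 0.28 (adjusted p = 0.0794). The 7 tested lymphocyte genes were at 0.27, with 5 positive. With age in mdx hearts the platelet receptor gene Gp1bb fell by 0.58 ± 0.16 (adjusted p = 0.0387) and Jchain by 0.90 ± 0.27 (adjusted p = 0.0491). Of the macrophage list Lyve1 rose by 0.89 ± 0.22 (adjusted p = 0.0238) and Laptm5 fell by 0.69 ± 0.20 (adjusted p = 0.0438). These 4 passed in 9, 5, 15 and 7 of 19 alternatives. Ventricular myocyte genes summed to between 167061 and 523744 at 8 weeks, with all 10 tested positive in mdx (median 0.31, 0 called). The 3 highest of these sums, 523744, 370222 and 362998, lay on the 3 young arrays of wide signal range.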
